A study of Nothobranchius furzeri with 15 samples.

Results

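The killifish gene enpp6 gave 2 of the 1810 circular RNAs (circRNAs) in the deposited coordinate table, found as every entry whose gene name was enpp6. The measurements came from 2 tissues, brain and muscle, of Nothobranchius furzeri, the turquoise killifish, a short-lived annual fish. All fish were of strain GRZ-AD, with no treatment or genotype named in the labels. Fish were 3.5, 8.5 or 14 weeks old, with 3 brain libraries and 2 muscle libraries at each age, made from total RNA after ribosomal RNA had been removed. Nothing in the labels ties the libraries to different fish, and p-values thus rest on the spread between these libraries, which may be technical.

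enpp6 encodes a choline-specific glycerophosphodiesterase of the ectonucleotide pyrophosphatase/phosphodiesterase family, an enzyme anchored to the cell surface that releases phosphocholine from glycerophosphocholine and lysophosphatidylcholine. In mouse brain its transcript marks newly forming oligodendrocytes, the glia that wrap axons in myelin. A circRNA arises when the end of an exon is spliced back to the start of the same or an upstream exon, and a read across that back-splice junction counts the circle. Linear reads at the same position are taken here as reads of the ordinary transcript, though the sources used here do not define them.

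Both enpp6 circles lay on the minus strand of chromosome 2, in the coordinates of the deposited table, whose genome build is not given in the sources used here. The shorter circle, called enpp6.1 here, ran from 69361184 to 69363007 and spanned 1824 bp. The longer circle, enpp6.2, ran from 69361184 to 69363012 and spanned 1829 bp. They shared the lower coordinate and differed by 5 bp at the upper one, which is the 5′ end of the circle on the minus strand. The median span of all 1810 circRNAs was 5096.5 bp, so both enpp6 circles had a shorter genomic span than most. A span includes any introns between the ends, so the length of the circular RNAs themselves is not known here.

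Both ends of each circle fell in annotated exons, which held for 1464 of the 1810 circRNAs. The table placed both circles in exon sequence with no coding sequence named, an entry shared by 11 of the 1810 circRNAs, against 1453 placed in exon and coding sequence. Among all hosts, 19 pairs of circles shared 1 end and differed by at most 20 bp at the other, and 5 of these pairs differed by 5 bp. In the 15 pairs with reads, the more read circle held between 50.0% and 96.2% of the pair's reads, with a median of 82.4%. With 233 reads of enpp6.2 and 12 of enpp6.1 over all 15 libraries, the enpp6 pair had the second most unequal split of these.

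The libraries were shallow for single circles. Circular reads numbered 2095 to 4400 per brain library and 1343 to 4269 per muscle library, and linear reads between 76515 and 135698. The median detected circRNA had 8 circular reads over the 9 brain libraries. Among markers of other cell types, the summed linear level of the skeletal muscle list (16 circRNA positions of 9 hosts, nebulin and myomesin genes among them) was 2348, 11194 and 11360 CPM in 3.5-week brain libraries 1, 2 and 3. It was 1350 to 1915 CPM at 8.5 weeks and 1450 to 1743 CPM at 14 weeks, against 128619 to 151502 CPM in the muscle libraries. Brain libraries 2 and 3 of 3.5 weeks thus stood apart from the other brain libraries, and the age differences of enpp6.2 and the list calls against 3.5 weeks are given with and without them. CPM here means, for brain, reads per 1e6 reads of a library size taken from the linear reads after TMM normalization. These are the linear reads counted at the 1810 circRNA positions, not all reads of a library. The muscle list levels were scaled to the linear totals without TMM.

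In brain, enpp6.2 was an abundant circle. It had 231 circular reads over the 9 libraries, a level of 235 ± 120 CPM (SD, n = 9), which ranked 13th of the 1533 circRNAs with a brain read. By age it ranked 24th of 1120 detected circRNAs at 3.5 weeks, 11th of 1216 at 8.5 weeks and 12th of 1207 at 14 weeks. In the single libraries its rank by reads was 137, 25 and 15 at 3.5 weeks, 4, 15 and 13 at 8.5 weeks and 11, 13 and 12 at 14 weeks, so 3.5-week library 1 stood apart. Its neighbours in the order over all ages were a circle of ubr3, a ubiquitin ligase, at 248 ± 81.0 CPM and a circle of gulp1, an engulfment adaptor, at 205 ± 102 CPM, and both differed from it by less than their SD. Its circular share, circular reads over circular plus linear reads, was 33.7% over the 9 libraries (95% exact binomial interval 30.2% to 37.4%), the 49th highest share of the 179 circRNAs with 30 or more brain reads, whose median was 16.1%.

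By library, enpp6.2 had 4, 12 and 24 circular reads at 3.5 weeks, 49, 16 and 30 at 8.5 weeks, and 36, 38 and 22 at 14 weeks. Scaled to the linear reads these were 33.9, 132 and 211 CPM at 3.5 weeks, 478, 202 and 271 CPM at 8.5 weeks, and 268, 277 and 242 CPM at 14 weeks. The 3.5-week libraries were low and far apart, the 8.5-week libraries held the highest single value, and the 14-week libraries lay close together. The count of 4 reads in 3.5-week library 1 has an exact Poisson interval of 1.09 to 10.2 reads, and the 24 reads in library 3 one of 15.4 to 35.7, and these intervals of the same age did not overlap. Such intervals cover counting error only.

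**Figure D1:**
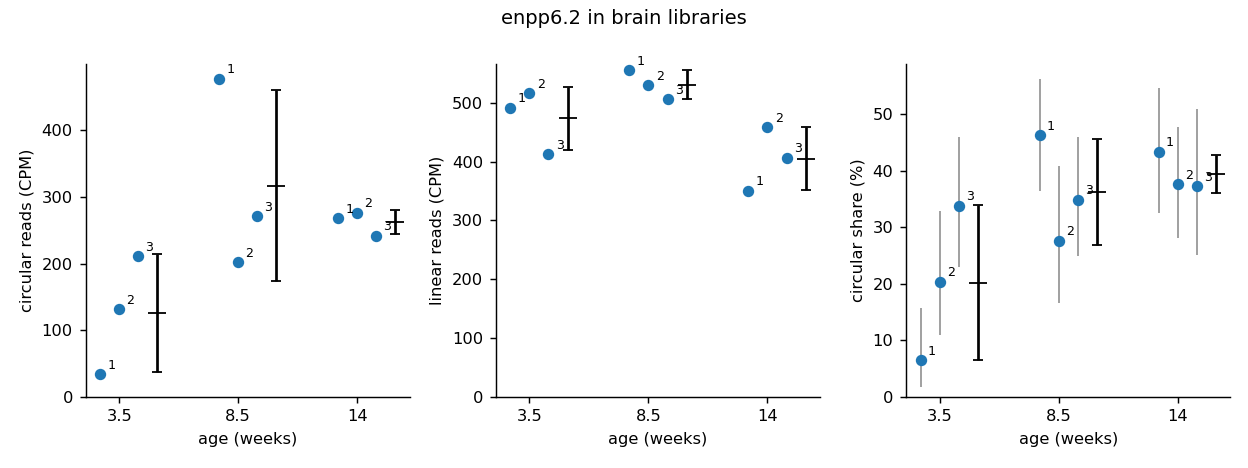
Circular level, linear level (both CPM) and circular share (%) of enpp6.2 by age in weeks, with each point a numbered brain library, black bars for the mean and SD of 3 libraries and thin grey bars for the 95% exact binomial interval of a share. The circular level of enpp6.2 averages 125, 317 and 262 CPM at 3.5, 8.5 and 14 weeks, while the mean linear level lies between 405 and 531 CPM.

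The mean circular level of enpp6.2 over 3 libraries (± SD) was 125 ± 88.6 CPM at 3.5 weeks, 317 ± 144 CPM at 8.5 weeks and 262 ± 18.2 CPM at 14 weeks. All 14-week libraries lay above all 3.5-week libraries, as for 66 of the 639 circRNAs tested (10.3%). At 8.5 weeks library 2, at 202 CPM, lay below 3.5-week library 3, at 211 CPM, so those ages overlapped. No age difference of enpp6.2 passed the edgeR quasi-likelihood test with Benjamini-Hochberg adjustment over all circRNAs, in which 1 of 639 circRNAs passed between 8.5 and 3.5 weeks (0.156%), 0 between 14 and 8.5 weeks (0%) and 1 between 14 and 3.5 weeks (0.156%). At an unadjusted p under 0.05 edgeR gave 31 circRNAs between 14 and 8.5 weeks, and DESeq2 called 0 there after adjustment.

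Between 8.5 and 3.5 weeks, the log2 difference of enpp6.2 was 1.34 (SE 0.42, edgeR adjusted p = 0.167), and its unadjusted p of 0.00135 was the 4th smallest of the 639 circRNAs tested by edgeR. Between 14 and 3.5 weeks the difference was 1.07 (SE 0.42, edgeR adjusted p = 0.417). Between 14 and 8.5 weeks it was -0.28 (SE 0.39, edgeR adjusted p = 0.994). The median log2 difference over all 639 circRNAs was 0.47 for 8.5 against 3.5 weeks, 0.34 for 14 against 3.5 weeks and -0.19 for 14 against 8.5 weeks, and enpp6.2 had the sign of the median at each step. With TMM factors from the circular counts the median of all for 8.5 against 3.5 weeks was 0.15, and enpp6.2 was at 1.03 (edgeR adjusted p = 0.641).

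The difference between 8.5 and 3.5 weeks depended on which libraries of both ages entered. Without 3.5-week library 3, enpp6.2 was higher at 8.5 weeks by 1.99 on the log2 scale and passed (edgeR adjusted p = 0.0203). Without 3.5-week library 1, the one with 4 reads, the difference was 0.86 (edgeR adjusted p = 0.534). It was 0.92 (edgeR adjusted p = 0.629) without 8.5-week library 1, the one with 49 reads. A further fit, chosen after seeing the data, left out 3.5-week libraries 2 and 3, which had the highest muscle levels. It leaves 1 library at 3.5 weeks and assumes that this library varies like the other ages. In that fit enpp6.2 was higher than at 3.5 weeks by 3.20 (SE 0.75) at 8.5 weeks and by 2.94 (SE 0.75) at 14 weeks. The lone library in that fit is the one with the fewest enpp6.2 reads, and it has the lowest muscle level of the 3.5-week libraries. That level, 2348 CPM, was still above the highest levels of 1915 CPM at 8.5 weeks and 1743 CPM at 14 weeks. The part of the muscle transcripts in the enpp6.2 difference was not tested further.

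Linear enpp6 reads varied less than the circle. At the position of enpp6.2 there were 58, 47 and 47 linear reads at 3.5 weeks, 57, 42 and 56 at 8.5 weeks, and 47, 63 and 37 at 14 weeks. The linear level averaged over 3 libraries (± SD) was 473 ± 53.8 CPM at 3.5 weeks, 531 ± 25.0 CPM at 8.5 weeks and 405 ± 54.2 CPM at 14 weeks. All 14-week libraries lay below all 8.5-week libraries, as for 88 of the 1753 positions tested (5.02%).

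No age difference of the linear reads passed at either enpp6 position, while edgeR called 46 of 1753 positions (2.62%) between 8.5 and 3.5 weeks, 0 (0%) between 14 and 8.5 weeks (65 at an unadjusted p under 0.05, and 0 by DESeq2) and 50 (2.85%) between 14 and 3.5 weeks. For enpp6.2 the log2 differences of the linear reads were 0.17 (SE 0.20, edgeR adjusted p = 0.744) for 8.5 against 3.5 weeks, -0.39 (SE 0.20, edgeR adjusted p = 0.999) for 14 against 8.5 weeks and -0.22 (SE 0.20, edgeR adjusted p = 0.675) for 14 against 3.5 weeks. At the position of enpp6.1 the linear reads were 63, 46 and 47 at 3.5 weeks, 58, 44 and 56 at 8.5 weeks, and 47, 66 and 37 at 14 weeks. Without both 3.5-week libraries 2 and 3 the linear differences of enpp6.2 were 0.12 (edgeR adjusted p = 0.95) at 8.5 weeks and -0.25 (edgeR adjusted p = 0.897) at 14 weeks, each against 3.5 weeks. The linear counts at the 2 positions are not independent. They were equal in 4 of the 9 brain libraries and in all 6 muscle libraries, and differed by at most 5 reads elsewhere.

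**Figure D2:**
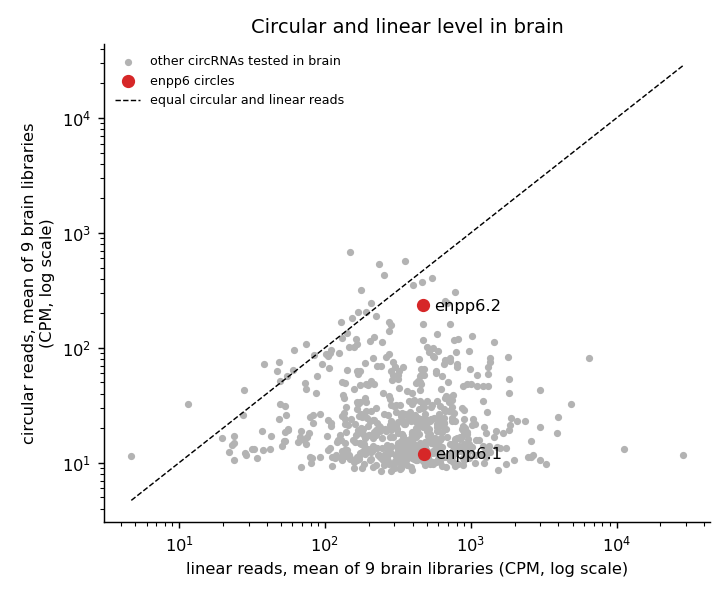
Mean circular against mean linear level (CPM, both axes on a log scale) over the 9 brain libraries, with each grey point a tested circRNA, the enpp6 circles in red and a dashed line at equal levels. enpp6.2 averages 235 CPM circular at 470 CPM linear, and enpp6.1, with 12 circular reads in all, lies far below it at nearly the same linear level.

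The share of circular reads at the enpp6.2 position was 6.45%, 20.3% and 33.8% in the 3.5-week libraries, 46.2%, 27.6% and 34.9% at 8.5 weeks, and 43.4%, 37.6% and 37.3% at 14 weeks. With reads pooled by age it was 20.8% (95% exact binomial interval 15.3% to 27.3%) at 3.5 weeks, 38.0% (32.0% to 44.3%) at 8.5 weeks and 39.5% (33.3% to 46.0%) at 14 weeks. The pooled intervals of both later ages lay above that of 3.5 weeks, but they ignore the spread between libraries, over which the mean share (± SD of 3 libraries) came to 20.2% ± 13.7 at 3.5 weeks, 36.2% ± 9.39 at 8.5 weeks and 39.4% ± 3.42 at 14 weeks.

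Tested over libraries, the circular to linear ratio of enpp6.2 did not pass at any step, nor did that of any other circRNA (0 of 639, 0%, at each step in edgeR and in a beta-binomial test). At an unadjusted p under 0.05, edgeR gave 42, 35 and 52 circRNAs for 8.5 against 3.5, 14 against 8.5 and 14 against 3.5 weeks. For enpp6.2 the log2 difference of the ratio was 1.25 (SE 0.72, edgeR adjusted p = 0.675) between 8.5 and 3.5 weeks and 1.43 (SE 0.72, edgeR adjusted p = 0.590) between 14 and 3.5 weeks. Between 14 and 8.5 weeks it was 0.18 (edgeR adjusted p = 0.999). Leaving out 1 library at a time put the differences against 3.5 weeks between 0.63 and 1.94 at 8.5 weeks and between 0.81 and 2.12 at 14 weeks. Without both 3.5-week libraries 2 and 3 they were 3.02 (SE 1.04, edgeR adjusted p = 0.681) at 8.5 weeks and 3.20 (SE 1.04, edgeR adjusted p = 0.712) at 14 weeks.

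The minor circle enpp6.1 had 0, 1 and 0 circular reads at 3.5 weeks, 3, 1 and 0 at 8.5 weeks, and 1, 5 and 1 at 14 weeks. It ranked 511th of the 1533 circRNAs with a brain read, beside circles of b4galt2 and sema5b with 12 reads each. Its pooled share was 0.637%, 2.47% and 4.46% at 3.5, 8.5 and 14 weeks, from 1, 4 and 7 reads. Its log2 differences were 1.77 (SE 1.79, edgeR adjusted p = 0.777) for 8.5 against 3.5 weeks and 2.17 (SE 1.74, edgeR adjusted p = 0.822) for 14 against 3.5 weeks, and its log2 ratio differences were 1.60 and 2.40 (edgeR adjusted p = 0.819 and 0.733). A difference of the size seen for enpp6.2 was not detectable at this depth.

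The balance between the 2 circles was lopsided in every brain library. enpp6.2 made up 100%, 92.3% and 100% of enpp6 circular reads at 3.5 weeks, 94.2%, 94.1% and 100% at 8.5 weeks, and 97.3%, 88.4% and 95.7% at 14 weeks. Over the 9 libraries it held 95.8% ± 4.0 (SD, n = 9), or 231 of 243 reads. In two-sided exact permutation tests the age means differed by -1.32 points for 8.5 against 3.5 weeks (p = 1), -2.34 points for 14 against 8.5 weeks (p = 0.6) and -3.66 points for 14 against 3.5 weeks (p = 0.5). With 3 libraries against 3 the smallest p is 0.1, so no such difference could pass 0.05. The slope over all 9 libraries was -0.350 points for each week (permutation p = 0.278, two-sided), and adjusted over these 4 comparisons the values were 1, 0.8, 0.8 and 0.8.

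**Figure D3:**
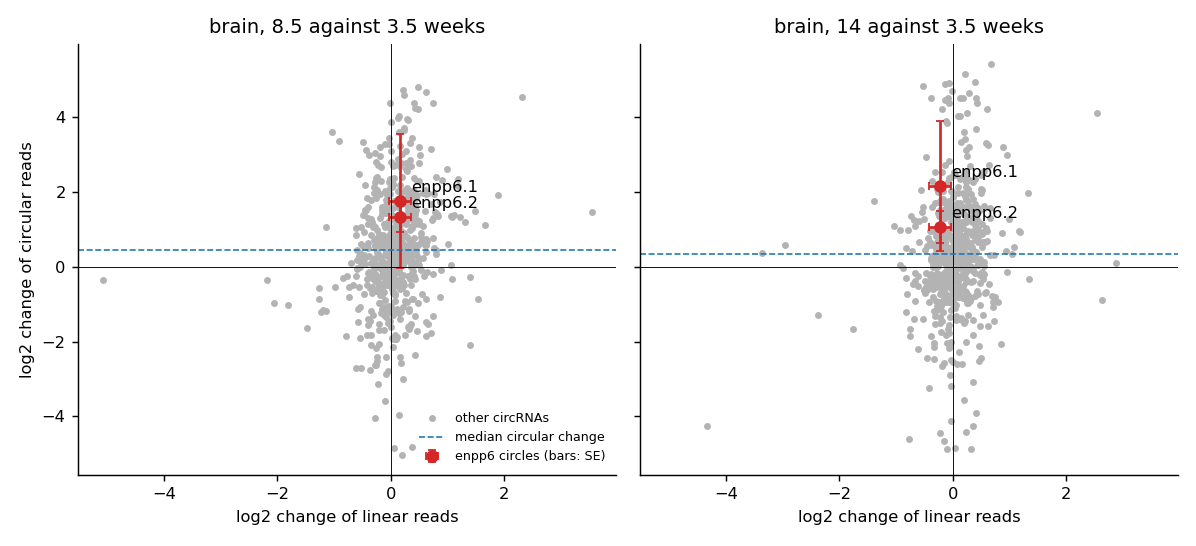
Log2 difference of circular reads (vertical) against that of linear reads (horizontal) in brain for 8.5 against 3.5 weeks (left) and 14 against 3.5 weeks (right), with each grey point a circRNA, the enpp6 circles in red with SE bars and a dashed line at the median circular difference. enpp6.2 lies at 1.34 and 1.07 for circular reads, above the medians of 0.47 and 0.34, and at 0.17 and -0.22 for linear reads.

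The authors' deposited table for 8.5 against 3.5 weeks in brain gives enpp6.2 a p of 0.0709, the 48th smallest of 251 circRNAs listed. Adjusted here over that table, it becomes 0.366. The authors' deposited table for 14 against 8.5 weeks gives a p of 0.730, and 0.924 once adjusted over its 296 circRNAs. enpp6.1 has no entry in either table, and the muscle tables list neither circle. The authors' p-values carry the label bbTest linear. The beta-binomial test of the circular to linear ratio made here gave enpp6.2 an unadjusted p of 0.0706 for 8.5 against 3.5 weeks (adjusted 0.403). For 14 against 8.5 weeks that test gave 0.710 (adjusted 0.937). As in that test and in the edgeR fits with all libraries, neither step passed for enpp6.2.

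enpp6 was mainly a brain signal. In muscle, enpp6.2 had 2 circular reads, both in 14-week library 1, and enpp6.1 had 0 in all 6 libraries. Linear reads at the enpp6.2 position numbered 0 and 5 in the 3.5-week muscle libraries, 2 and 0 at 8.5 weeks, and 3 and 0 at 14 weeks. Only 3 of the 6 muscle libraries had any linear enpp6 read.

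With the reads summed and scaled to linear totals of 977458 in brain and 609645 in muscle, enpp6.2 circular reads were 72.0-fold higher in brain than in muscle (95% interval 19.7 to 598) and linear reads 28.3-fold higher (15.3 to 59.5). These intervals pool the libraries of a tissue and cover counting error only. In edgeR, over the mean of the 3 ages, the log2 difference of brain over muscle was 5.63 (SE 0.94, adjusted p = 3.4e-08) for circular reads of enpp6.2 and 3.35 (SE 0.38, adjusted p = 1.89e-09) for its linear reads. No muscle library of 3.5 or 8.5 weeks had a circular read of enpp6.2, so the fitted circular differences here and below are not bounded estimates. Without 14-week muscle library 1, which held both muscle circular reads, the fitted circular difference was 7.19. No circular read of enpp6.2 was then left in muscle at any age. With each library except 14-week muscle library 1 left out in turn, the circular difference was 5.39 to 5.75. Without 3.5-week muscle library 3, which held 5 of the 10 linear reads, the linear difference was 5.22. It was 4.68 without 8.5-week muscle library 1 and 5.06 without 14-week muscle library 1. Each of these was the only muscle library of its age with linear enpp6 reads, so these linear values are not bounded estimates. With any of the remaining libraries left out, the linear difference was 3.07 to 3.38. Every one of these circular and linear fits passed. Of 896 circRNAs tested, 207 passed for circular reads (23.1%) and 75 of them were higher in brain (8.37%), while 1289 of 1771 positions passed for linear reads (72.8%), 849 of them higher in brain (47.9%). Both enpp6.2 differences exceeded the medians over all circRNAs of 1.16 for circular and 0.72 for linear reads. On linear totals without TMM the medians of all were 2.00 and 2.19, and enpp6.2 was at 6.40 for circular and 4.82 for linear reads.

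The circular to linear ratio of enpp6.2 did not pass between the tissues. Its log2 difference for brain over muscle was 1.49 (SE 1.06, edgeR adjusted p = 0.935), with 36 of 896 circRNAs passing (4.02%). Of those 36, 35 were lower in brain, and the edgeR median over all circRNAs was -1.03, of the opposite sign to enpp6.2. The sign of the median depended on the method. In the beta-binomial test the median was 0.22, with enpp6.2 at 1.32 (beta-binomial adjusted p = 0.570). That test called 11 of 863 circRNAs higher in brain and 81 lower. Leaving out 1 library at a time in edgeR gave enpp6.2 values between 0.045 and 1.79, but not all of these fits are usable. The SE was 185 without 3.5-week muscle library 3, which gave the value of 0.045. It was 1897 without 8.5-week muscle library 1 and 4448 without 14-week muscle library 1. Those fits give no usable estimate, and the others lay between 1.26 and 1.79. As no muscle library of 3.5 or 8.5 weeks had an enpp6.2 circular read, these values and 1.49 are not bounded estimates either. The muscle share rests on 2 circular of 12 reads (16.7%, 95% exact binomial interval 2.09% to 48.4%). enpp6.1 had 12 circular reads in brain and 0 in muscle, and did not pass (log2 2.86, edgeR adjusted p = 0.251). Set against a floor of 3 counts over the muscle group it was 2.49-fold higher in brain. The lower 95% limit of the pooled ratio, for counting error only, was 1.73. Its linear reads passed at 3.38 (edgeR adjusted p = 1.68e-09). The muscle counts were too few for a test of age. In whole tissue, fewer cells of a type and less RNA per cell cannot be told apart.

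**Figure D4:**
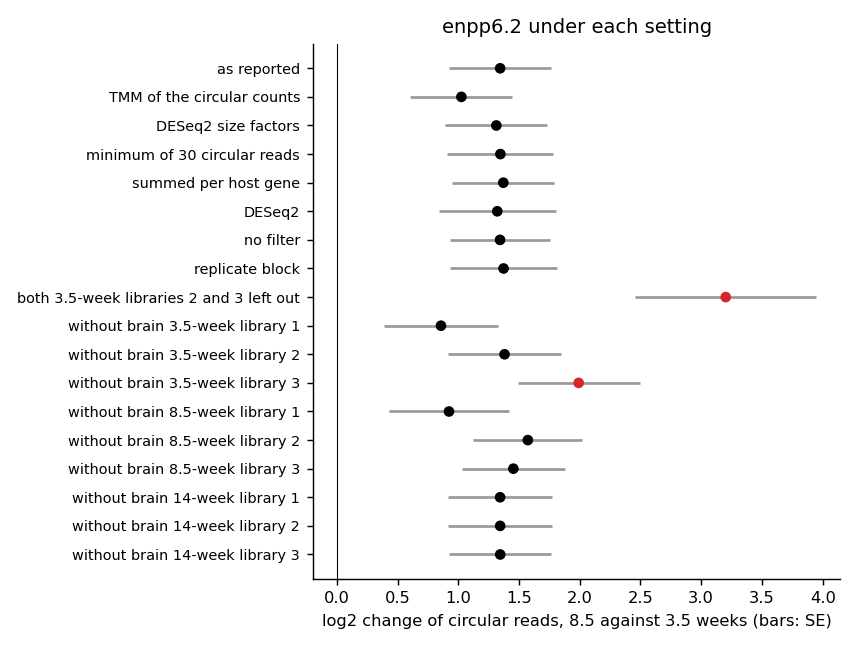
Log2 difference of enpp6.2 circular reads in brain, 8.5 against 3.5 weeks, as reported and under each alternative, with SE bars and red points where the adjusted p was under 0.05. Leaving out both 3.5-week libraries 2 and 3 gives 3.20, and the other alternatives lie between 0.86 and 1.99.

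The label of an oligodendrocyte gene could be set against few of the usual markers here. Defining genes such as mbp, mog, mag, sox10, olig1 and olig2 were not analysed here, as the table used gives no position under these symbols. The oligodendrocyte gene ugt8 was measured, with 640 linear reads in brain and 77 in muscle. Whether enpp6 runs with such genes was not tested. Of 47 oligodendrocyte and myelin symbols, 6 had circRNAs, with 8 circles in all. The largest was a circle of ptprz1b, a receptor tyrosine phosphatase, with 189 brain circular reads, split as 58, 49 and 82 at 3.5, 8.5 and 14 weeks. None of the 6 tested circles of the list passed for circular reads at any step. The list's median log2 difference was 0.08 for 8.5 against 3.5 weeks, 0.36 for 14 against 8.5 weeks and 0.68 for 14 against 3.5 weeks, against 0.47, -0.19 and 0.34 over all circRNAs.

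The other named members were low. The circle of qkia, an RNA-binding protein needed for myelination in mouse, had 4, 6 and 10 reads at 3.5, 8.5 and 14 weeks, and that of zeb2a, a transcription factor, had 1, 11 and 8. The circle of kcnj10a, an inwardly rectifying potassium channel of glia, had 3, 3 and 8. Linear reads of the list ran both ways. Raw counts at 3.5, 8.5 and 14 weeks were lower at 8.5 weeks for ugt8 (282, 150 and 208), nfasca.1 (334, 220 and 302) and nfasca.2 (374, 249 and 400). They were higher at 8.5 weeks for zeb2a (68, 76 and 88), ptprz1b.1 (51, 73 and 95) and ptprz1b.2 (44, 53 and 63). Those of kcnj10a were 238, 231 and 261. The linear reads of qkia rose at 8.5 weeks against 3.5 weeks by 0.75 on the log2 scale (SE 0.17, edgeR adjusted p = 0.0239), the 1 of 8 positions of the list to pass (1.08% of all positions were called higher at this step). Without both 3.5-week libraries 2 and 3 it did not pass (log2 0.69, edgeR adjusted p = 0.338).

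The summed linear level of the oligodendrocyte list in brain was 5798 to 7232 CPM at 3.5 weeks, 6513 to 8759 CPM at 8.5 weeks and 5969 to 7899 CPM at 14 weeks, with overlap at every step. In the muscle libraries it was 1300 to 2048 CPM. The position of qkia had the most linear reads of the list, 2831 in brain and 829 in muscle. Of the genes of choline and glycerophosphocholine metabolism, 3 of 39 symbols had circRNAs: enpp6 itself, the phospholipase pld1 with 0, 0 and 1 circular reads at 3.5, 8.5 and 14 weeks, and the lysophospholipase pnpla6 with 2, 3 and 0. No other enpp symbol was found among the hosts, so enpp6 was the sole member of the 7 in its family list found by symbol. Of 532 hosts with LOC names, 325 had a symbol, and hosts without one could not be matched to any list.

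Lists for other cell types give the setting. For 8.5 against 3.5 weeks, the 14 tested neuronal circles had a median log2 difference of 1.44, against 0.47 over all circRNAs. It was -0.33 for 14 against 8.5 weeks and 0.70 for 14 against 3.5 weeks, against -0.19 and 0.34. The summed linear level of the neuronal list in brain was 49384 to 52491 CPM at 3.5 weeks. At 8.5 weeks it was 59328 to 63957 CPM, and at 14 weeks 53041 to 61840 CPM. Of 14 tested neuronal circles, 1 rose at 8.5 weeks against 3.5 weeks, that of gabra6b, a GABA receptor subunit (log2 3.21, edgeR adjusted p = 0.00871), which was also the 1 circRNA called of all 639 (0.156%). Without both 3.5-week libraries 2 and 3 it did not pass (log2 3.99, edgeR adjusted p = 0.151). Of the 15 skeletal muscle positions tested for linear reads, 8 fell at 8.5 weeks and 8 at 14 weeks against 3.5 weeks, with median log2 differences of -3.05 and -2.98, beside the high muscle levels of 3.5-week libraries 2 and 3. Over all 1753 positions 1.54% were called lower at 8.5 weeks and 1.94% at 14 weeks. Without both libraries, 0 of those 8 passed at 8.5 weeks and 2 of 8 at 14 weeks, both at atp2a1, the calcium pump of fast muscle. By symbol, the microglia list had no circRNA, the vascular list 1 and the radial glia list 2, none with 10 or more brain circular reads.

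Across the 9 brain libraries, the circRNAs whose log2 circular level ran most like that of enpp6.2 were those of aox1 (Pearson r = 0.94, Spearman rho = 0.72), LOC107388356 (0.94, 0.82), ralyl (0.93, 0.78), nfatc3 (0.92, 0.58) and cdk19 (0.91, 0.52), of 178 with 30 or more reads. All 5 had 0 reads in 3.5-week library 1, where enpp6.2 was lowest, so that library weighs heavily in these values. For linear reads the closest of 1455 positions were those of mta1 (r = 0.92) and a circle of LOC107392954 (r = 0.91).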

How the data were processed

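Brain and muscle libraries of 3 ages were counted by the authors, who deposited raw counts at each position, of circular junction reads and of linear reads, a coordinate table and p-values from their own comparisons of neighbouring ages, which are not labelled as adjusted. STAR 2.5.2b is the tool named for the reads, per the submitters' processing notes. Not given in the sources used here are the circular RNA caller, the genome build, the annotation and how linear reads were defined. The deposited counts held 0 columns of other samples. No genome or sequence of the files' build was used, and coordinates are those of the deposited table. Gene symbols for 325 of 532 LOC hosts came from a RefSeq table of assembly NfurGRZ-RIMD1.

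Circular, linear and circular-to-linear counts went into quasi-likelihood F tests of edgeR 4.0.16, Benjamini-Hochberg adjusted over all circRNAs with 10 or more reads, at 0.05. Library sizes and TMM factors came from linear counts, and all brain ages shared 1 fit. Brain and muscle were compared in 1 fit of 15 libraries as the mean over 3 ages. The standard error is the absolute log2 difference over the square root of F. Shares are 100 times circular over circular plus linear reads. No replicate pair was identical or within sampling noise. Scripts were tested on simulated data.

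The members and lists were chosen with earlier results of these data known. Named genes were every enpp6 circle, up to 4 circles per list with the most brain reads, the 5 most alike circles and linear positions, and the neighbours in rank. Alternatives were TMM of circular counts, DESeq2 1.42.0 and its size factors, no filter, a minimum of 30 reads, sums per host gene, linear totals, a beta-binomial test, a replicate block and each library left out. The fit without 3.5-week brain libraries 2 and 3 was chosen after seeing the data.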

Additional observations from a re-analysis of the deposited data

How the results depend on the processing

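Of 419 alternative values of the enpp6 results, 410 kept their direction and side of the threshold, 6 changed sign and 3 passed only in the alternative. The 410 include results that passed neither as reported nor in the alternative. They also include fits without a usable estimate, such as those named above for the enpp6.2 ratio between tissues. The 3 that passed were enpp6.2 circular reads at 8.5 against 3.5 weeks without 3.5-week library 3 (log2 1.99, edgeR adjusted p = 0.0203) and, with both 3.5-week libraries 2 and 3 left out, at 8.5 against 3.5 weeks (3.20, edgeR adjusted p = 0.00986) and 14 against 3.5 weeks (2.94, edgeR adjusted p = 0.0351). Over all alternatives these adjusted p-values ranged between 0.00986 and 0.641, and between 0.0351 and 0.830. Leaving out 1 library at a time, the 8.5 against 3.5 week difference ranged between 0.86 and 1.99, the 14 against 3.5 week one between 0.59 and 1.71 and the 14 against 8.5 week one between -0.51 and 0.14. For enpp6.1 at 14 against 8.5 weeks, leaving out a library gave -0.18 to 0.77. Sums per host gene gave -0.23 at this step. That sum holds both circles, with 231 of 243 brain reads from enpp6.2, and is not a value of enpp6.1 alone. It was set against each circle, and its sign change for enpp6.1 is counted among the 6 above. The enpp6.2 ratio at 14 against 8.5 weeks ranged between -0.068 and 0.51, and the composition difference between -4.10 and 0.359 points. For enpp6.1, with 0 circular reads in muscle, the log2 ratio difference of brain over muscle was -1.72 in edgeR and 18.0 in the beta-binomial test. With a replicate block, enpp6.2 at 8.5 against 3.5 weeks was 1.37 (edgeR adjusted p = 0.213). After the mean of each age was taken off, same-numbered brain libraries correlated at -0.207 to 0.0568. Differently numbered ones correlated at -0.198 to 0.226. These values do not set same-numbered libraries apart, but cannot decide whether the numbers pair them, as each age has only 3 libraries. Counts of calls over all circRNAs moved by over 1.5 times in some alternatives. For circular reads, the 1 call at 8.5 against 3.5 weeks became 2 at a minimum of 30 reads, 0 with the block and 0 to 4 without a library. The 1 call at 14 against 3.5 weeks became 0 with circular TMM, sums per host gene, DESeq2, no filter and the block, 0 without 3.5-week library 1 or 2, 8.5-week library 2 or 14-week library 2, and 2 without both libraries. For the ratio, 0 became 1 at a minimum of 30 reads. For linear reads, 46 became 9 and 50 became 6 without both libraries, and 50 became 33 with sums per host gene; single libraries left 19 to 50 and 19 to 55. Between tissues, 207 became 387 on linear totals and 133 to 204 without a library, and 36 became 92 with the beta-binomial test and 18 to 39 without a library. The causes were not tested.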
